A study of Rattus norvegicus with 33 samples.

Results

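The genes described here code for receptors through which angiotensin, catecholamines and endothelin act on blood vessels and the cells around them. The list held 5 genes, Agtr1a, Agtr2, Adra1a, Ednra and Ednrb, chosen by symbol, and 3 of them, Agtr1a, Agtr2 and Adra1a, had a row named by a single gene symbol among the 14506 genes of the table. Ednra and Ednrb had no row under that rule and were not analysed here. The data are 33 Affymetrix arrays of soleus RNA from 33 female Wistar rats, which form 11 groups of 3. A difference of level is given as a log2 value, so that 1 unit is a doubling.

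In the spinal cord experiment SCI rats had a complete transection between the 9th and 10th thoracic vertebrae at 9 weeks of age and, 14 weeks later, the surgery for a nerve stimulator together with a left gastrocnemius tenotomy, but no stimulator, and muscle was taken 21 days after that surgery. SCI-ES rats had the same transection and tenotomy and a stimulator, and from 16 weeks after transection ES was given for 1 hour per day at 1.5 volts and 40 Hz for 1, 3 or 7 days. Sham-SCI rats had the laminectomy without transection, and the methods describe implant surgery and tenotomy for SCI and SCI-ES rats only, so that SCI versus Sham-SCI may hold these procedures as well. SCI-ES muscle at 1 and 3 days was taken sooner after the implant surgery than SCI muscle. In the second experiment the spinal cord was intact. GA rats, 22 to 23 weeks old, had the insertion of the left gastrocnemius cut to overload the soleus, Sham-GA rats had the same operation without the cut, and muscle was taken at 1, 3 or 7 days.

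Angiotensin II, made from angiotensinogen by renin and angiotensin converting enzyme, constricts arteries through the AT1 receptor, of which Agtr1a is the main form in rodents. The AT2 receptor, from Agtr2, opposes many of these effects and is known for high levels in fetal tissue and lower levels in most adult tissue. Adra1a codes for the alpha-1A adrenergic receptor, through which noradrenaline from sympathetic nerves constricts arteries, and the AT1 and alpha-1 receptors both act through Gq proteins and phospholipase C.

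The 250 bases before the start of Agtr1a and of Agtr2 are shown, from RefSeq on GRCr8. They are chr17:34435433-34435682 on the minus strand (Agtr1a) and chrX:116914070-116914319 on the plus strand (Agtr2). The promoter set used here held no entry for Adra1a. Capitals mark the TATA box TATAAA, the GC box GGGCGG and the CCAAT box on either strand. Each sequence runs 5′ to 3′ towards the gene.
Agtr1a: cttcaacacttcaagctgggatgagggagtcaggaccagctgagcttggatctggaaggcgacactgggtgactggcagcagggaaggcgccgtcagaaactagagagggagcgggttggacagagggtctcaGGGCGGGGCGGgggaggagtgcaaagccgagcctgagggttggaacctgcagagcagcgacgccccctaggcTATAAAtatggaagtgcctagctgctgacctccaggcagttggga
Agtr2: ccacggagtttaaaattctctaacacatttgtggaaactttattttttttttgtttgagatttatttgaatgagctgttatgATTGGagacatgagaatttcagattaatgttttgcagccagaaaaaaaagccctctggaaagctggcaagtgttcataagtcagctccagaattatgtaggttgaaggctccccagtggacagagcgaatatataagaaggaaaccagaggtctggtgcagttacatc

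The Agtr1a window held TATAAA, which started 45 bases before the start of the gene and which 12.9% of 33469 promoter windows of this length held on either strand. It also held GGGCGG at 117 and 112 bases before the start, as 2 matches that overlap, and this motif was found in 30.5% of the windows. The Agtr2 window held neither motif and had a match to CCAAT, which 34.0% of windows held, at 168 bases before the start, on the opposite strand. CANNTG, the E box, was present at 2 places in each window and in 65.5% of all windows. The GC content was 60.8% for Agtr1a and 38.0% for Agtr2, against a median of 51.2%. The windows of the 2 receptors thus had only the E box in common among the motifs searched. Only the exact letters TATAAA were counted as a TATA box, so the related tatataa near the end of the Agtr2 window was not counted.

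Agtr2 rose in soleus after SCI. Its log2 expression was 6.99, 7.47 and 6.82 in SCI rats, against 5.65, 5.66 and 6.08 in Sham-SCI rats. The lowest SCI array lay above the highest Sham-SCI array. Agtr2 was dimmer than most genes, with a mean of 6.02 over the 33 arrays and 32.2% of all genes below it. The means were 7.09 ± 0.337 in SCI and 5.80 ± 0.244 in Sham-SCI (SD, n = 3 each), a 2.45-fold difference (log2 fold change 1.29, SE 0.256, 95% interval 0.74 to 1.84, adjusted p = 0.046 by limma with Benjamini-Hochberg adjustment). Here and below a gene passed the test, or was called, where the p adjusted over all genes tested was under 0.05 and the groups differed 1.5 fold or more. The call is close to that limit, and it was lost without any 1 of the 6 arrays, with adjusted p values from 0.093 to 0.15 and differences from 1.11 to 1.43. It was also lost after a repeated quantile normalization (adjusted p = 0.052), with arrays shifted to one median (adjusted p = 0.051) and in the F test of the methods (adjusted p = 0.15).

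Agtr1a was also above Sham-SCI in every SCI rat, although the difference did not pass the test. Its values were 7.88, 7.94 and 8.09 in SCI rats, against 7.41, 6.63 and 6.36 in Sham-SCI rats. The SCI arrays were close together and did not overlap with the Sham-SCI arrays, which were spread more widely. The difference was 1.17 (SE 0.351, 95% interval 0.41 to 1.93, adjusted p = 0.15). Adra1a was 6.95, 7.33 and 6.79 in SCI rats, against 7.01, 7.59 and 7.03 in Sham-SCI rats, and these groups overlapped (difference -0.19, 95% interval -0.69 to 0.32, adjusted p = 0.78). Thus 1 of the 3 members was called, where 0.401% of 14456 genes were called in either direction, and in 2 of the 3 the groups did not overlap, where 22.3% of genes had groups apart.

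**Figure D1:**
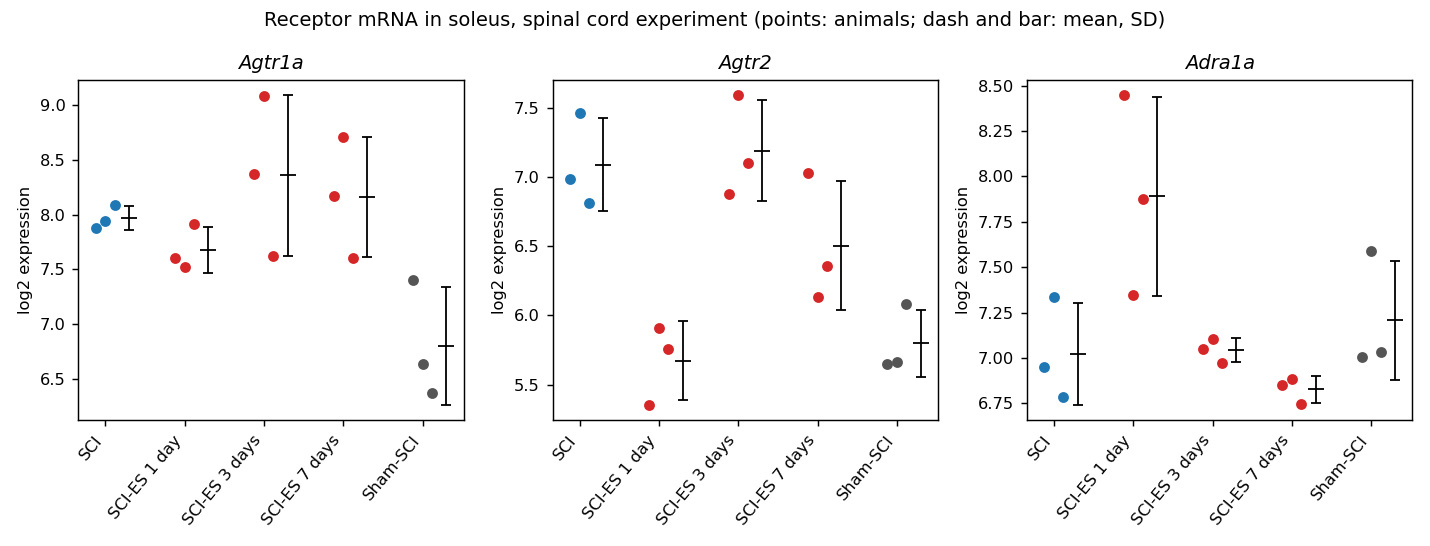
Log2 expression of Agtr1a, Agtr2 and Adra1a (vertical axes) in the SCI, SCI-ES and Sham-SCI groups. Points are single rats, and the dash and bar are the mean and SD of 3. Agtr2 at 1 day of ES lies between 5.35 and 5.91, below every SCI rat, and Adra1a at 1 day of ES lies between 7.35 and 8.45, above every SCI rat.

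Markers of several cell types differed between SCI and Sham-SCI along with the angiotensin receptors, and none of them passed the test. Of 13 fibroblast markers, 12 were higher in SCI and 11 had groups apart, with a median difference of 1.10, where the median over all genes was -0.02. The mean log2 level of the list was between 10.14 and 10.57 in SCI rats and between 8.98 and 9.33 in Sham-SCI rats. Markers of smooth muscle and of endothelium, with medians of 0.04 over 9 genes and 0.11 over 11 genes, were near the median of all genes. Pericyte markers were higher in 4 of 8 genes and lower in 4, with groups apart in 4 and a median of 0.195. Satellite cell markers were higher in 6 of 7 genes (median 0.41), Schwann cell markers in 5 of 6 (0.29) and adipocyte markers in 7 of 8 (0.19). Fast fiber markers were higher in 9 of 9 genes with a median of 1.20, slow fiber markers were lower in 9 of 9 with a median of -1.02, and macrophage markers were higher in 9 of 10 with a median of 0.47. The part of these cells in the receptor differences was not tested. In whole muscle, fewer cells of a type and less RNA per cell cannot be told apart.

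After 1 day of ES, Agtr2 was lower and Adra1a higher than in SCI without ES. Agtr2 was 5.35, 5.91 and 5.75 after 1 day of ES, against 6.99, 7.47 and 6.82 in SCI. The groups did not overlap, and the level after 1 day of ES was close to that of Sham-SCI. The difference from SCI was -1.42 (SE 0.256, 95% interval -1.97 to -0.87), with an unadjusted p of 8.6e-05 from limma. By p value Agtr2 ranked 2 among 14456 genes, and the adjusted p was 0.47. The adjusted p was 0.037 in a single fit of all 33 arrays, and between 0.065 and 0.93 when 1 array was left out.

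Adra1a was 8.45, 7.35 and 7.87 after 1 day of ES, against 6.95, 7.33 and 6.79 in SCI. The lowest ES array lay just above the highest SCI array. The difference was 0.87 (SE 0.234, 95% interval 0.36 to 1.37, unadjusted p of 0.0025 from limma, adjusted p = 0.55). Agtr1a was 7.60, 7.52 and 7.92 after 1 day of ES, which overlapped with SCI (difference -0.29, 95% interval -1.05 to 0.47, adjusted p = 0.90). The groups were apart in 2 of the 3 members, where they were apart in 11.4% of all genes. Limma called 0% of the 14456 genes in this comparison, 1053 genes had an unadjusted p under 0.05, and the adjusted F test called 0 genes. The paper, whose methods state no such adjustment, reports genes altered at each day of ES. Its text describes an alpha-1 adrenergic receptor, with no subtype named, as raised at 1 day and near normal by 7 days. The values it plots for that receptor are relative to Sham-SCI.

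Markers of several cell types were lower after 1 day of ES than in SCI. Fibroblast markers were lower in 12 of 13 genes with a median of -0.41, endothelial markers in 11 of 11 with a median of -0.39, and pericyte markers in 7 of 8 with a median of -0.31, and none passed the test. The smooth muscle markers were lower in 8 of 9 genes with a median of -0.19. Relative to Sham-SCI, fibroblast markers after 1 day of ES were still higher in 12 of 13 genes, with a median of 0.79. There endothelial markers were lower in 11 of 11 genes (median -0.31), pericyte markers in 5 of 8 (-0.10) and smooth muscle markers in 8 of 9 (-0.11). The part of these markers in the lower Agtr2 was not tested.

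At 3 and 7 days of ES the angiotensin receptors overlapped with SCI. Agtr2 was 6.88, 7.59 and 7.10 at 3 days, with a difference from SCI of 0.10 (95% interval -0.45 to 0.65), and 7.03, 6.13 and 6.35 at 7 days, with a difference of -0.59 (95% interval -1.14 to -0.03, adjusted p = 1 by limma). Agtr1a was 8.37, 9.09 and 7.62 at 3 days and 8.17, 8.71 and 7.60 at 7 days. These arrays were more widely spread than those of SCI, and the differences from SCI were 0.39 (95% interval -0.37 to 1.15) and 0.19 (95% interval -0.56 to 0.95).

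Adra1a at 3 days of ES was 7.05, 7.11 and 6.97, and at 7 days 6.85, 6.88 and 6.74. The high values of the first day were absent from these arrays, and the differences from SCI were 0.02 (95% interval -0.48 to 0.52) and -0.20 (95% interval -0.70 to 0.31). None of the members passed the test at either day, and limma called 0% of 14456 genes at 3 days (444 with an unadjusted p under 0.05) and 0% at 7 days (410). The adjusted F test also called 0 genes at each day.

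The change between the first and the seventh day of ES ran in opposite directions in Agtr2 and Adra1a. Agtr2 was higher at 7 days than at 1 day by 0.83 (SE 0.256, 95% interval 0.28 to 1.38, unadjusted p of 0.0060, adjusted p = 0.28 by limma), with no overlap. Adra1a was lower at 7 days by 1.06, the log2 difference being -1.06 (SE 0.234, 95% interval -1.57 to -0.56, unadjusted p of 0.00051, adjusted p = 0.24), and again with no overlap. Agtr1a differed by 0.48 (95% interval -0.27 to 1.24), with overlap. The groups were apart in 2 of the 3 members and in 15.3% of all genes. Limma called 0% of 14456 genes, 1754 had an unadjusted p under 0.05 and the adjusted F test called 0. Without SCI-ES 1 day replicate 2, the lowest of the Adra1a values of that day, Adra1a was called, with a difference of -1.33 and an adjusted p of 0.020, in a fit that called 99 genes in all. Without replicate 1 of that group, the highest, the difference was -0.78 and the adjusted p 0.69.

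**Figure D2:**
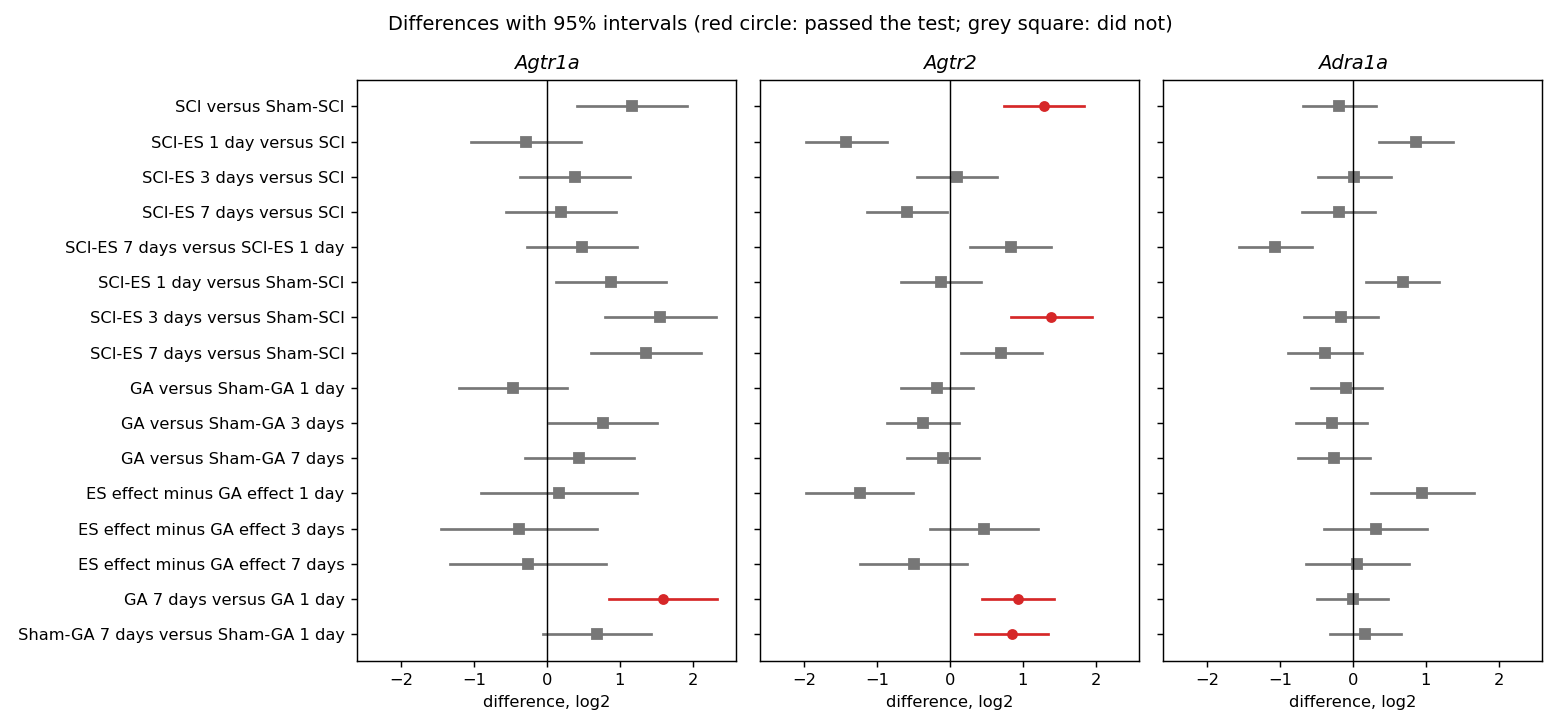
Difference in log2 expression (horizontal axes) of each receptor in the 16 comparisons named on the vertical axis, first group minus second, with 95% intervals from limma. Red circles passed the test and grey squares did not, and all 5 red circles lie to the right of 0, for Agtr2 in 4 comparisons and for Agtr1a in 1.

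Against Sham-SCI, Agtr1a was higher at all days of ES. The comparisons with Sham-SCI share the Sham-SCI arrays, and those with SCI share the SCI arrays, so they are not independent of each other. The Agtr1a difference was 0.88 (SE 0.351, adjusted p = 0.30 by limma) at 1 day, 1.56 (SE 0.351, adjusted p = 0.067) at 3 days and 1.36 (SE 0.351, adjusted p = 0.088) at 7 days. No ES array of any of these days overlapped with Sham-SCI. The share of all genes with groups apart is not given, here or below, for ES versus Sham-SCI. In SCI versus Sham-SCI that share was 22.3%. At 3 days the difference was called with an adjusted p of 0.042 without SCI-ES 3 days replicate 3, the lowest of that group, and at 7 days with 0.035 without SCI-ES 7 days replicate 3, in fits that called 72 and 361 genes in all. Without replicate 2 of the ES group it was 1.20 with an adjusted p of 0.30 at 3 days, and 1.09 with an adjusted p of 0.35 at 7 days.

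Agtr2 rose at 3 days of ES relative to Sham-SCI, by 1.39 (SE 0.256, 95% interval 0.84 to 1.94, adjusted p = 0.038 by limma), and the groups did not overlap. This call too was lost without any 1 array, with adjusted p values from 0.055 to 0.19, and in the adjusted F test, with 0.15. Fibroblast markers were higher at 3 days of ES than in Sham-SCI in 12 of 13 genes, with a median of 1.27. Fast fiber markers were higher in 8 of 9 genes (median 1.14), endothelial markers in 10 of 11 (0.48), pericyte markers in 6 of 8 (0.52) and macrophage markers in 10 of 10 (0.45), and slow fiber markers were lower in 9 of 9 (-0.63). None of these markers passed the test, and their part in the Agtr2 difference was not tested. At 1 day the Agtr2 difference from Sham-SCI was -0.13 (95% interval -0.68 to 0.43), with overlap, and at 7 days it was 0.71 (95% interval 0.16 to 1.26, adjusted p = 0.21), with groups apart.

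Adra1a relative to Sham-SCI was 0.68 (SE 0.234, 95% interval 0.18 to 1.19, adjusted p = 0.25) at 1 day, -0.17 at 3 days and -0.38 (95% interval -0.89 to 0.12) at 7 days. The 7-day arrays all lay below Sham-SCI, and those of the other days overlapped with it. Without SCI-ES 1 day replicate 2 the 1-day difference was 0.95, with an adjusted p of 0.033 in a fit that called 378 genes in all, and without replicate 1 it was 0.40, with an adjusted p of 0.68. Of the 14456 genes, 0.208% were called at 1 day, 0.38% at 3 days and 0.699% at 7 days against Sham-SCI, and the members called were 0, 1 and 0 of 3.

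The 13 other adrenergic genes ranged from -0.41 (Maob, which degrades monoamines) to 1.30 (Adra1b) after 1 day of ES relative to SCI. Adra1b and Th, which is the high end of that list in the ES effect minus the GA effect at 1 day, had arrays far apart within the 1-day ES group. Adra1b, the alpha-1B receptor, was 8.92, 5.57 and 6.07 after 1 day of ES, against 4.62, 7.25 and 4.78 in SCI. SCI replicate 2 stood far above the rest of its group, and the groups overlapped (difference 1.30, SE 0.751, adjusted p = 0.73 by limma). Th, tyrosine hydroxylase, which makes the precursor of noradrenaline, was 7.17, 5.46 and 7.02 after 1 day of ES, against 4.83, 5.70 and 5.31 in SCI (difference 1.27, SE 0.363, adjusted p = 0.56). In Adra1a, Adra1b and Th alike, replicate 2 was the lowest of the 1-day ES arrays.

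**Figure D3:**
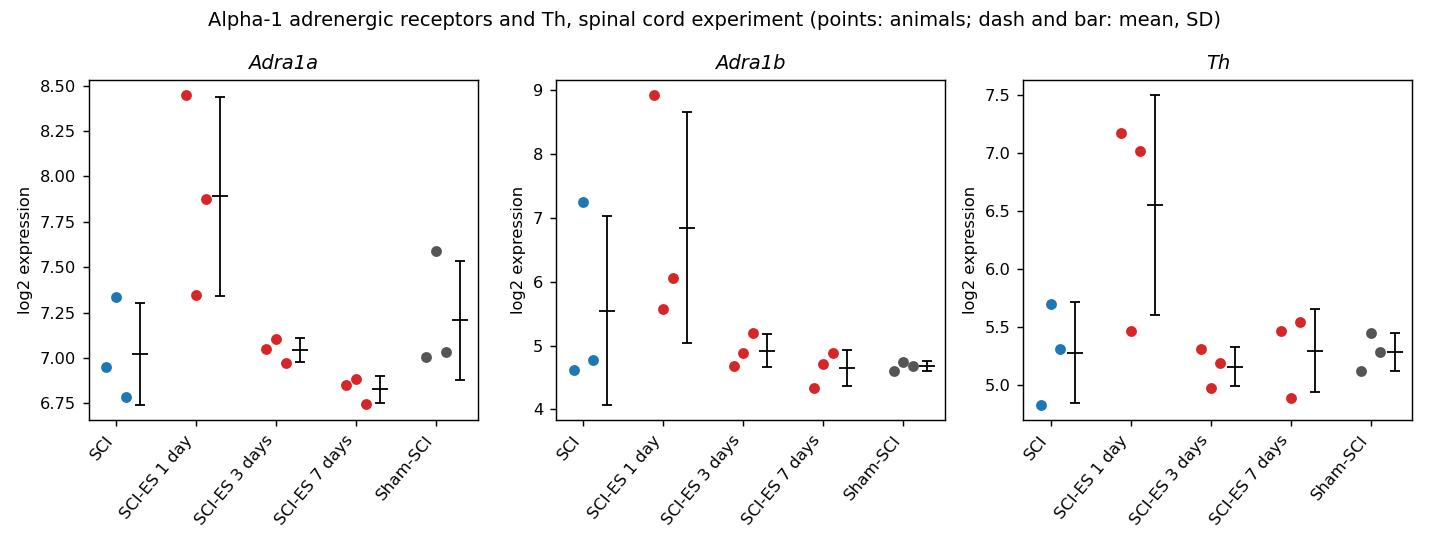
Log2 expression of Adra1a, Adra1b and Th (vertical axes) in the SCI, SCI-ES and Sham-SCI groups. Points are single rats, and the dash and bar are the mean and SD of 3. In the 1-day ES group replicate 1 is highest in each gene, at 8.45, 8.92 and 7.17, and replicate 2 is lowest.

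The remaining genes of these pathways passed the test in none of the comparisons among SCI, SCI-ES and Sham-SCI, nor in those of GA with Sham-GA. In SCI versus Sham-SCI the 13 measured genes of the renin-angiotensin pathway ranged from -0.25 (Mtus1, whose protein binds the AT2 receptor) to 0.77 (Anpep, an aminopeptidase that trims angiotensin peptides and that also marks pericytes), with a median of -0.03. Agtr1b, the close copy of Agtr1a, was measured by a row of its own and differed by -0.03 (SE 0.135). That row was dim, with means of 4.76 in SCI and 4.79 in Sham-SCI, where the medians of the arrays were 6.45 to 6.54. RNA of close copies can bind each other's probes, and the part of Agtr1b in the Agtr1a signal was not tested. The 6 endothelin ligands and converting enzymes had a median of 0.00, and the 28 genes of Gq and other receptor signaling a median of 0.06.

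After 1 day of ES relative to SCI, the 6 endothelin pathway genes were all lower, with values from -0.38 (Ece1, a converting enzyme) to -0.06 (Edn1, the vasoconstrictor endothelin-1). Of 28 receptor signaling genes 25 were lower, with a median of -0.12. Among 32 other vasoactive receptors the range ran from -0.66 (Ramp1, a partner of the CGRP receptor) to 0.97 (Npr3, which clears natriuretic peptides), with a median of -0.04, where all genes had a median of 0.00. None of these genes passed the test.

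No receptor passed the test between GA and Sham-GA on any day. Agtr1a was 7.00, 7.52 and 6.45 at 1 day of GA, against 7.14, 7.07 and 8.14 in Sham-GA, with overlap (difference -0.46, 95% interval -1.20 to 0.28). At 3 days it was 8.64, 8.72 and 7.57 in GA, against 7.21, 7.97 and 7.43 in Sham-GA, still with overlap (difference 0.77, 95% interval 0.03 to 1.52, adjusted p = 0.30 by limma). At 7 days it was 8.91, 8.27 and 8.59 in GA, against 7.90, 8.25 and 8.26 in Sham-GA. The 7-day arrays were just apart, and the difference was 0.45 (95% interval -0.30 to 1.19, adjusted p = 1). The share of all genes with groups apart is not given, here or below, for GA versus Sham-GA.

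Agtr2 in GA was 5.30, 5.20 and 5.26 at 1 day, 5.15, 5.10 and 5.48 at 3 days and 5.79, 6.65 and 6.14 at 7 days. In Sham-GA it was 5.30, 5.45 and 5.55 at 1 day, 5.56, 5.67 and 5.63 at 3 days and 5.90, 6.92 and 6.01 at 7 days. Every GA array lay below every Sham-GA array at 3 days only, and both groups were higher at 7 days. The differences of GA from Sham-GA were -0.18 (95% interval -0.67 to 0.31), -0.37 (95% interval -0.87 to 0.12, adjusted p = 0.39) and -0.09 (95% interval -0.58 to 0.41) at 1, 3 and 7 days.

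Adra1a had group means from 6.83 in GA at 7 days to 7.18 in Sham-GA at 3 days, and GA overlapped with Sham-GA at each day. The differences of GA from Sham-GA were -0.09 (95% interval -0.58 to 0.40), -0.29 (95% interval -0.78 to 0.20) and -0.26 (95% interval -0.75 to 0.23) at 1, 3 and 7 days. Limma called 0.0554% of 14451 genes at 1 day and 0% at 3 days (2383 with an unadjusted p under 0.05) and at 7 days (380). The adjusted F test, here of the GA effect over the days, called 0 genes at each day. The paper, with no such adjustment stated, reports genes altered by GA.

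**Figure D4:**
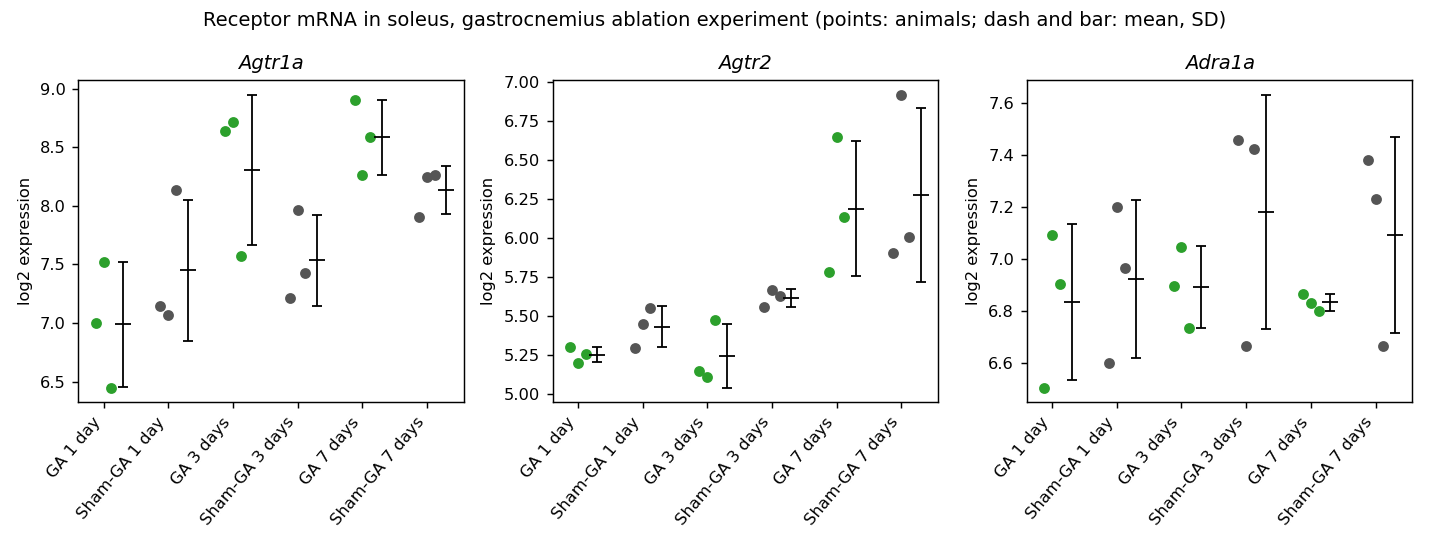
Log2 expression of Agtr1a, Agtr2 and Adra1a (vertical axes) in GA and Sham-GA rats at 1, 3 and 7 days. Points are single rats, and the dash and bar are the mean and SD of 3. Agtr1a in GA rats lies between 6.45 and 7.52 at 1 day and between 8.27 and 8.91 at 7 days.

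In GA rats both angiotensin receptors rose between 1 and 7 days. The 2 comparisons of 7 days with 1 day were added after the values had been seen. In GA rats Agtr1a rose 3.02-fold at 7 days relative to 1 day (log2 fold change 1.60, SE 0.349, 95% interval 0.85 to 2.34, adjusted p = 0.0070 by limma), and Agtr2 rose 1.92-fold (log2 fold change 0.94, SE 0.232, 95% interval 0.45 to 1.43, adjusted p = 0.014). The groups did not overlap in either gene, and Adra1a differed by 0.00 (95% interval -0.49 to 0.49). The 2 members called stand beside 8.6% of 14451 genes called in this comparison, and the groups were apart in 2 of the 3 members and in 35.1% of all genes.

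In Sham-GA rats Agtr2 rose 1.80-fold at 7 days relative to 1 day (log2 fold change 0.85, SE 0.232, 95% interval 0.35 to 1.34, adjusted p = 0.031 by limma), with 6.57% of 14451 genes called. The Agtr1a difference in Sham-GA rats was 0.69 (SE 0.349, 95% interval -0.05 to 1.43, adjusted p = 0.24), with overlap through Sham-GA 1 day replicate 3, whose 8.14 stood above the rest of its group. Adra1a differed by 0.17 (95% interval -0.32 to 0.66). The Agtr2 call in Sham-GA rats was lost without Sham-GA 7 days replicate 2, or without any 1 of the 3 Sham-GA 1 day arrays, with adjusted p values up to 0.11. The Agtr2 call in GA rats was lost without GA 7 days replicate 2, where the adjusted p was 0.074. The Agtr1a call was lost in an F test over all GA and Sham-GA groups, with an adjusted p of 0.082. That F test is not specific to 7 days versus 1 day and is not one that the methods describe.

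Markers of fibroblasts and of some other cells rose over the same days. Of the fibroblast markers in GA rats 9 of 13 rose, with a median of 1.62, and in Sham-GA rats 9 of 13 rose, with a median of 1.77, where all genes had medians of -0.05 and -0.04. The mean level of the list was between 10.98 and 11.15 in GA rats and between 11.03 and 11.37 in Sham-GA rats at 7 days. At 1 day it was between 9.03 and 9.72 in GA rats and between 9.28 and 9.68 in Sham-GA rats. In GA rats 4 of 9 smooth muscle markers rose (median 0.46), 2 of 8 pericyte markers (0.40) and 2 of 8 adipocyte markers (1.09). In Sham-GA rats 2 of 9 smooth muscle markers rose (median 0.49), 2 of 8 pericyte markers (0.56) and 1 of 8 adipocyte markers (0.48). Macrophage and satellite cell markers went both ways in GA rats. Of 10 macrophage markers 3 rose and 1 fell (median -0.36), and of 7 satellite cell markers 1 rose and 1 fell (0.41). In Sham-GA rats 2 macrophage markers rose and 0 fell (0.01), and 0 satellite cell markers passed the test (-0.07). The part of these cells in the receptor differences was not tested.

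Some genes of the pathways around these receptors passed the test in GA rats between 1 and 7 days, where 8.6% of all genes did. Among 32 other vasoactive receptors 4 rose and 0 fell, namely F2r, the thrombin receptor (1.29), Aplnr, the apelin receptor (1.29), Npr3 (1.11) and Calcrl, the CGRP receptor (0.66). Of 28 signaling genes 4 rose, namely Rgs5, a regulator of G proteins known from pericytes (1.13), the inositol trisphosphate receptors Itpr3 (0.81) and Itpr1 (0.65) and the phospholipase Plcb4 (0.78), and 1 fell, the G protein subunit Gna13 (-0.77). Ece2 rose by 0.61 in the endothelin list. No renin-angiotensin or adrenergic gene passed the test. In Sham-GA rats F2r (1.18), Calcrl (0.95), Itpr3 (0.83) and Ramp2, a partner of Calcrl (0.72), rose and none fell, where 6.57% of all genes were called.

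**Figure D5:**
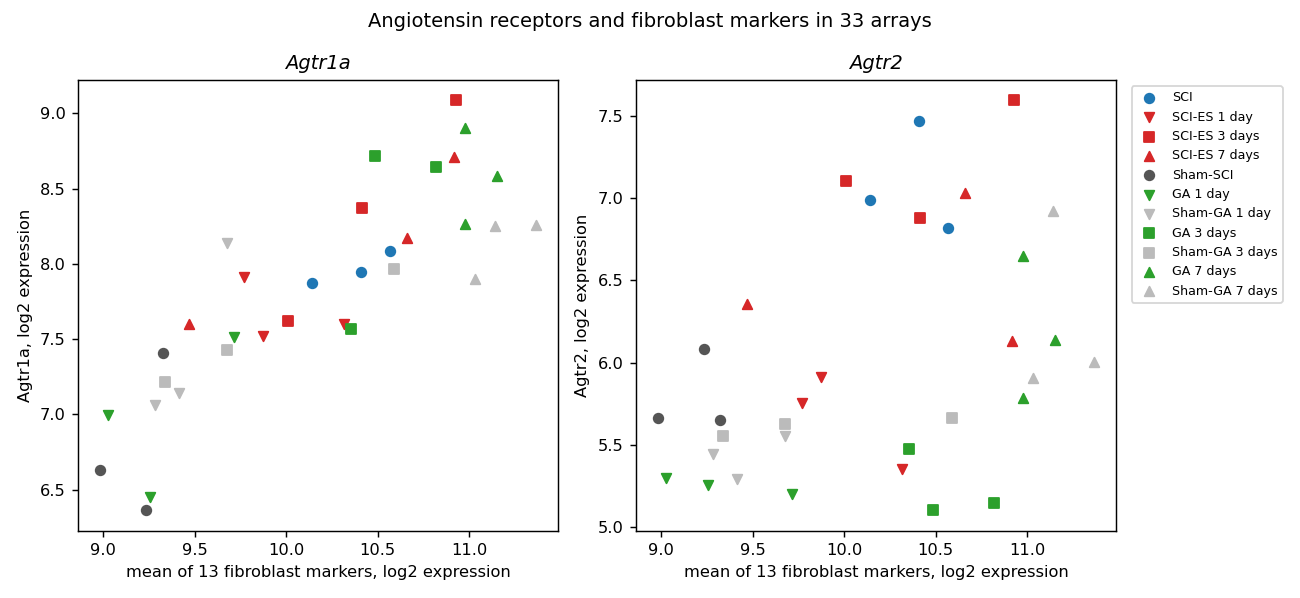
Log2 expression of Agtr1a (left) and Agtr2 (right) on the vertical axes against the mean log2 expression of 13 fibroblast markers on the horizontal axis, with 1 point for each of 33 arrays. Sham-SCI points lie at 8.98 to 9.33 on the horizontal axis, and the 3 GA arrays at 3 days lie at 10.36 to 10.82 there with Agtr2 at 5.10 to 5.48.

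The effect of ES relative to SCI was set against the effect of GA relative to Sham-GA at the same day, as the difference between these differences. At 1 day it was -1.24 for Agtr2 (SE 0.359, 95% interval -1.98 to -0.50, adjusted p = 0.13 by limma), 0.95 for Adra1a (SE 0.341, 95% interval 0.25 to 1.66, adjusted p = 0.21) and 0.17 for Agtr1a (SE 0.522, 95% interval -0.90 to 1.24). None of the 3 members was called, where 0.0554% of 14453 genes were called at 1 day. At 3 days the values were -0.38 for Agtr1a, 0.47 for Agtr2 and 0.31 for Adra1a, and at 7 days -0.25, -0.50 and 0.06. Limma called 0% of 14453 genes at 3 days (1369 with an unadjusted p under 0.05) and 0% at 7 days (454).

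Over the 11 groups the mean of Agtr1a ran from 6.80 in Sham-SCI to 8.59 in GA at 7 days, a range of 1.79. The second highest was SCI-ES at 3 days, at 8.36, and the second lowest GA at 1 day, at 6.99. All 10 pairs of neighbours in this order overlapped. The spread within a group was smallest in SCI, with an SD of 0.107, and largest in SCI-ES at 3 days, with 0.732.

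The mean of Agtr2 ran from 5.24 in GA at 3 days to 7.19 in SCI-ES at 3 days, a range of 1.95, with SCI next at 7.09. Of its 10 pairs of neighbours 9 overlapped, and the exception was Sham-GA at 3 days over Sham-GA at 1 day. The mean of Adra1a ran from 6.83 in SCI-ES at 7 days to 7.89 in SCI-ES at 1 day, a range of 1.06, and its 10 pairs of neighbours all overlapped. The group of 1 day of ES thus stood at the top for Adra1a and in the seventh place from the top for Agtr1a and Agtr2.

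The members varied differently from each other. Over the 15 arrays of the spinal cord experiment, which share groups, Pearson's r was 0.56 between Agtr1a and Agtr2, -0.54 between Agtr2 and Adra1a and -0.21 between Agtr1a and Adra1a, and over the 18 GA arrays it was 0.38, 0.12 and -0.07. Of 14455 other genes, those most like Agtr1a over the 15 arrays were Plagl1 (r = 0.96), Apoe (0.96) and Igf1 (0.96), with r over the 18 GA arrays of 0.72, 0.59 and 0.86. For Agtr2 they were Prlr (0.89), Ntrk3 (0.87) and Dhrs7l1 (0.86), with -0.02, 0.51 and 0.16 over the GA arrays. For Adra1a they were G6pc3 (0.92), Dnal1 (0.91) and Akip1 (0.91), with 0.38, 0.54 and -0.58. Prlr and Akip1 thus did not keep a positive r in the GA arrays. Spearman's rank correlation over the 15 arrays was 0.91, 0.90 and 0.94 for the Agtr1a genes and 0.88, 0.91 and 0.875 for those of Agtr2. For the Adra1a genes it was lower than Pearson's r, at 0.75, 0.78 and 0.75.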

How the data were processed

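Soleus RNA of 33 rats was hybridized to Affymetrix arrays. The deposited values are log2 expression values, which the authors obtained with oligo after subtracting the baseline, normalizing by quantiles and summarizing by median polish. Tool versions are not given in the sources used here. The methods name an exon array, whereas the probe table is of a gene array. The design text differs from the sample labels in the middle day of ES and in the side of ablation, and the days of the labels were used. The table has 29214 rows. A single symbol names 15310 of them (14506 genes), and the 323 with several and the 13581 with no symbol were not used. Where a gene had more than 1 row (527 genes), the brightest stood for it. The number of arrays limits the precision, and within a group each array correlated with the others at 0.969 to 0.992.

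A mean per group was fitted in R 4.3.3 with limma 3.58.1 (lmFit and eBayes), in separate fits of 15 and 18 arrays, and over all 33 for the ES effect minus the GA effect. Genes with a mean of at least 3 were tested, with Benjamini-Hochberg adjustment over all of them. Genes named are the members, pathway genes that passed the test, the 3 genes with the highest r with each member and the ends of the range of a list. Th and Adra1b are such ends, Th for the ES effect minus the GA effect at 1 day. The members and lists were chosen with earlier results of these data known. For SCI versus Sham-SCI the fit was also run on simulated data with independent noise for each gene. That run is not used as support for any call. Alternatives were other filters, normalizations and fits, other ways to join rows, an F test, a replicate block, and fits without each array. The F test followed the ANOVA of the methods, with Benjamini-Hochberg adjustment added and without their variance filter. For 7 days versus 1 day in GA or Sham-GA rats it ran over all GA and Sham-GA groups. The replicate numbers did not pair the arrays. Python 3.11.15 with matplotlib 3.10.9, numpy 2.4.6 and pandas 2.3.3 served for tables and plots.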

Additional observations from a re-analysis of the deposited data

How the results depend on the processing

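With 3 rats a group, calls near the threshold depended on the processing. Of 877 values of single members under an alternative, 820 kept direction and side of the threshold, 26 lost a call, 8 gained one and 23, all with an array left out, changed sign. The number of members called in SCI versus Sham-SCI was 0 after quantile normalization again, with arrays shifted to one median, with the adjusted F test, with the replicate block and without any 1 array, against 1 as reported. For SCI-ES 3 days versus Sham-SCI it was 2 with the variance filter, with arrays shifted to one median and with all 33 arrays, 0 with the F test and the replicate block, and 0 to 1 with an array left out, against 1. For SCI-ES 1 day versus SCI it was 1 with all 33 arrays. With an array left out it was 0 to 1 for SCI-ES 7 days versus SCI-ES 1 day, SCI-ES 1 day versus Sham-SCI and SCI-ES 7 days versus Sham-SCI. For GA 7 days versus GA 1 day it was 1 with the filter at a mean of 6, where Agtr2 was not tested. It was also 1 with the F test over all GA and Sham-GA groups, and 1 to 2 with an array left out. For Sham-GA 7 days versus Sham-GA 1 day it was 0 with that filter, after quantile normalization again and with the 2 groups alone, and 0 to 1 with an array left out. Apart from the filter, the cause was not tested. The replicate numbers did not pair the arrays: deviations of same-numbered arrays had a mean r of -0.04 over 30 pairs (9 over 0.1) in the spinal cord experiment and -0.05 over 45 pairs (16 over 0.1) in the GA experiment, and the replicate block changed the member count in the 2 comparisons named above only. Differences that changed sign with an array left out had these ranges. In SCI versus Sham-SCI Adra1a ran from -0.34 to 0.00, with 0.004 without Sham-SCI replicate 2. In SCI-ES 3 days versus SCI Agtr2 ran from -0.10 to 0.29 and Adra1a from -0.10 to 0.18, and in SCI-ES 7 days versus SCI Agtr1a from -0.079 to 0.47. Against Sham-SCI, Agtr2 at 1 day of ES ran from -0.24 to 0.034 and Adra1a at 3 days from -0.27 to 0.024. In GA versus Sham-GA, Adra1a at 1 day ran from -0.25 to 0.077 and Agtr2 at 7 days from -0.32 to 0.23. In the ES effect minus the GA effect, Agtr1a ran from -0.17 to 0.44 at 1 day and from -0.53 to 0.025 at 7 days, and Adra1a from -0.081 to 0.28 at 7 days. In GA 7 days versus GA 1 day Adra1a ran from -0.17 to 0.13.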
